A study of Mus musculus with 24 samples.

Results

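Depolarized cortical neurons that had lost Smarcc2 were compared with depolarized neurons that kept it. The comparison takes the 5 libraries, of 24 in the series, that the labels give as depolarized at 18 days in vitro (DIV18) and as carrying either a non-targeting guide RNA (NT, 2 libraries) or a Smarcc2 knockout with a vector (KO, 3 libraries). Both groups were primary cultures from the cortex of mouse embryos at embryonic day 16.5. They were silenced overnight with 1 µM tetrodotoxin, which blocks voltage-gated sodium channels, and 100 µM D-AP5, which blocks NMDA receptors, and were then held in 50 mM KCl for 30 min. The NT titles name no vector, so the guide and the vector cannot be told apart here. The labels give neither the share of cells that were edited nor the strain of the mice. The protocols treat the cortex of each embryo as a replicate, but reads of Xist (9099 to 16355 counts) and of 4 Y-linked genes, among them Ddx3y (374 to 461 counts), were present in all 5 libraries.

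Smarcc2 encodes a core scaffold subunit of BAF complexes, the mammalian SWI/SNF chromatin remodellers, which use ATP to move nucleosomes and so change access to promoters and enhancers. Smarcc1 is its paralogue. In neurons, high extracellular potassium depolarizes the membrane and opens voltage-gated calcium channels, and calcium signalling to the nucleus switches on early-response genes such as Fos within minutes.

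Library totals were 21262030 and 19890849 estimated counts in NT and 14510199 to 18731047 in KO, so every KO library was shallower than both NT libraries. Levels are given in CPM, the counts of a gene relative to its library's size after scaling by TMM factors. A gene was called, and is said to have risen or fallen, at an adjusted p under 0.05 in edgeR's quasi-likelihood test. The 2 depolarized NT libraries differed in some gene lists. The summed level of 16 astrocyte markers was 2005 CPM in NT replicate 1 and 2699 CPM in NT replicate 2, while that of 19 early-response genes was 1433 and 804 CPM. In KO the early-response sum was 1296, 1355 and 904 CPM. Across genes the 2 NT libraries correlated at 0.980, and KO replicate 3 with the other libraries at 0.965 to 0.975. With 2 NT libraries neither can be called the odd one. Results are given with and without NT replicate 2. The neuronal label held, with Rbfox3, a neuronal splicing factor, at 187 to 236 CPM over the 5 libraries and Slc17a7, the vesicular glutamate transporter of cortical excitatory neurons, at 1408 to 1682 CPM.

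The targeted transcript was lower in every KO library. Smarcc2 (ENSMUSG00000025369.15, GRCm38 chromosome 10, 128459248 to 128490482, plus strand) was at 274 and 283 CPM in NT and at 49.1, 47.5 and 60.0 CPM in KO. The groups did not overlap, and the log2 fold change of KO minus NT was -2.42 (SE 0.141, adjusted p 1.96e-08). The main transcript in NT was Smarcc2-202, with 3420.2 and 2956 estimated counts against 245, 258 and 435 in KO. Smarcc2-201 was at 1369 and 1438 counts in NT and 428, 367 and 263 in KO. Reads assigned to Smarcc2 thus remained in the KO libraries, and counts do not say whether these transcripts encode protein.

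The other BAF subunits were mostly near their NT level. Of the 28 subunit genes tested 2 were called, Smarcc2 and Smarca2, against 2.67% of all genes tested, and the median of the list was -0.02. Smarcc1 was at 81.8 and 80.9 CPM in NT and at 91.4, 85.9 and 81.8 CPM in KO (0.09, SE 0.0834, adjusted p 0.658). Smarca2, one of the alternative ATPases of the complex, was at 167 and 189 CPM in NT and at 130.2, 131 and 114 CPM in KO (-0.51, SE 0.108, adjusted p 0.0178). Smarca4, the other ATPase, was at 283 and 287 CPM in NT and at 268, 286 and 271 CPM in KO (-0.05, adjusted p 0.808) and was not called. With 1 library left out, these calls were lost: Smarca2 (KO replicate 3 or NT replicate 2 left out, adjusted p 0.0802 to 0.294).

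**Figure D1:**
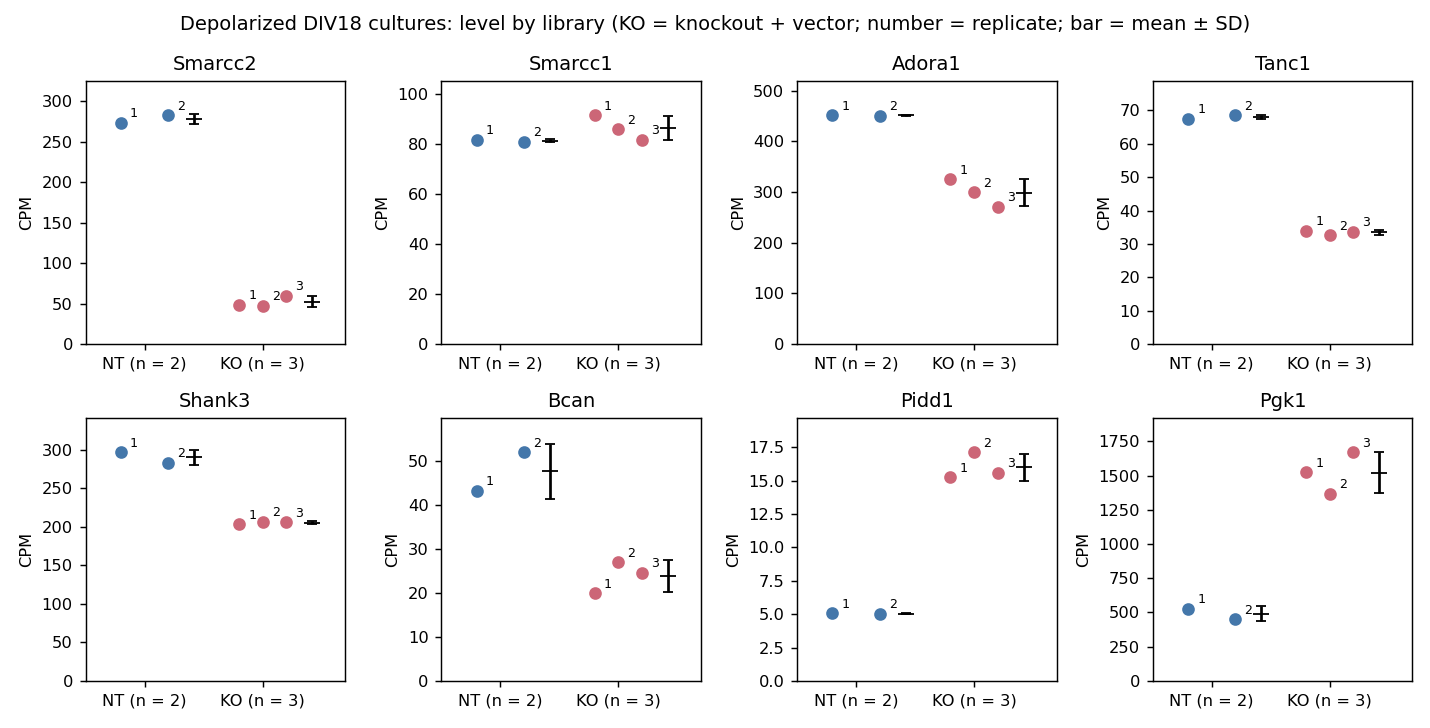
Level in CPM (vertical axis, from 0) of 8 genes in the 2 NT and 3 KO libraries, one point per library numbered by replicate, with the mean and SD beside the points. Smarcc2, Adora1, Tanc1, Shank3 and Bcan lie lower in every KO library than in both NT libraries, Pidd1 and Pgk1 lie higher, and the Smarcc1 points lie close together.

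Across all genes, 560 of 20940 were called (2.67%). More genes fell than rose in the KO libraries: 408 fell (1.95%) and 152 rose (0.726%), while 3466 had an unadjusted p under 0.05. The median log2 fold change was -0.54 among those that fell, 0.77 among those that rose and 0.02 over all genes tested. The genes that fell were the more abundant, with a median of 66.3 CPM against 13.1 CPM for those that rose and 7.05 CPM for all genes. The protein-coding genes that fell spanned a median of 37127 bases, those that rose 23748 and all that were tested 24224. In all 560 called genes the KO libraries lay on one side of both NT libraries. Over all genes tested, 18.5% had every KO library below both NT libraries and 17.3% had every one above. These shares of all genes are the background for the counts of each list. Listed genes as a whole were called more often. Beside the 4 lists added after values were seen, 27 lists held 529 tested genes, of which 41 were called, 35 lower and 6 higher. A list above the share of all genes therefore need not stand out from the other lists. The shares were not matched for abundance.

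**Figure D2:**
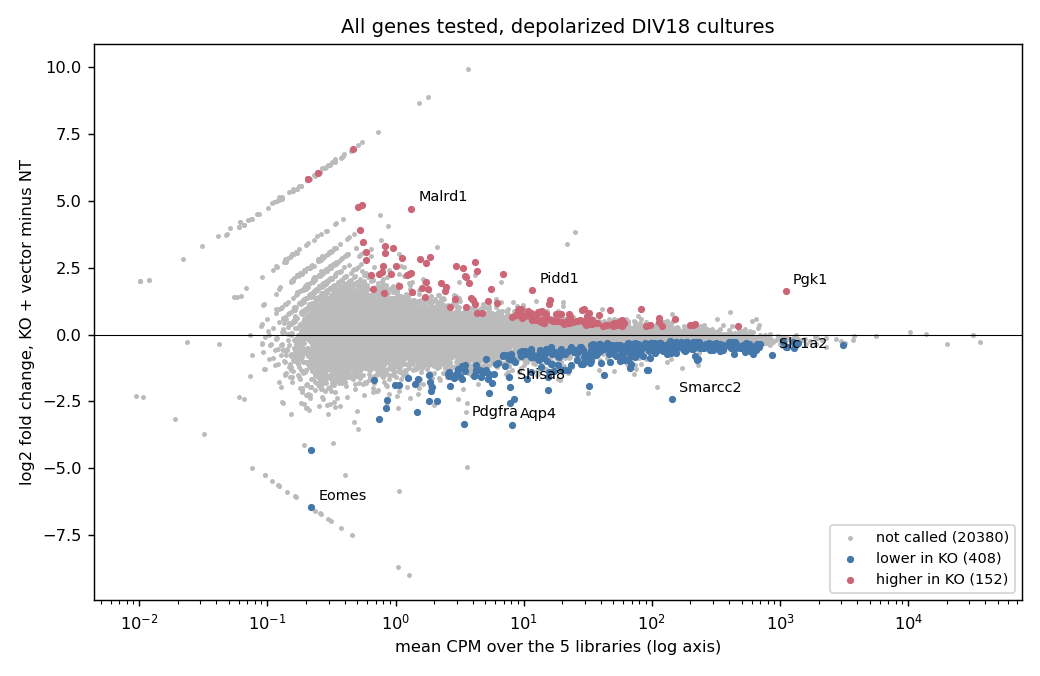
Log2 fold change of KO minus NT (vertical axis) against mean CPM over the 5 libraries (horizontal log axis) for the 20940 genes tested, with the 408 genes called lower in blue and the 152 called higher in red. Most calls at high abundance are lower in KO, and Smarcc2 and Pgk1 stand away from genes of like abundance.

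The number of calls depended on single libraries. Leaving out 1 KO library gave 169 to 185 calls, leaving out NT replicate 1 gave 276, and leaving out NT replicate 2 gave 40, of which 38 were among the 560. All 560 genes kept their direction in these 5 fits. As none of them had overlapping groups, leaving out 1 library could hardly reverse a direction, so this is no separate support. The genes called in the fit as reported and in each of the 11 alternatives numbered 28, of which 22 fell and 6 rose. That set was picked after the values were seen.

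**Figure D3:**
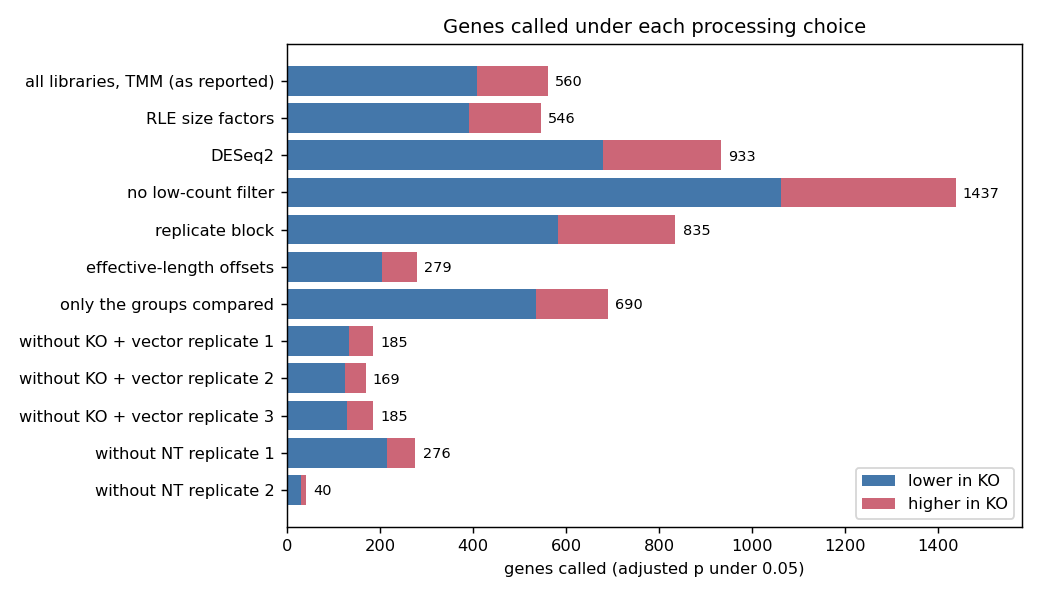
Number of genes called (horizontal axis, from 0) in the fit as reported and in 11 alternatives, split into lower (blue) and higher (red) in KO. The number runs from 40 without NT replicate 2 to 1437 with no filter on low counts.

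Several of the genes that fell in every fit act at the synapse. Tanc1 (chromosome 2, 59612042 to 59846149, plus strand), a scaffold protein of the postsynaptic density, was at 67.5 and 68.5 CPM in NT and at 34.0, 32.6 and 33.7 CPM in KO (-1.02, SE 0.129, adjusted p 5.68e-04). Shank3 (chromosome 15, 89499623 to 89560261, plus strand), a central scaffold of excitatory synapses, was at 297 and 283 CPM in NT and at 203, 206 and 206 CPM in KO (-0.50, SE 0.0766, adjusted p 0.00270). Both scaffold genes had KO libraries that nearly coincided.

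Receptor and signalling genes belonged to the same set. Adora1, the adenosine receptor that damps transmitter release, was at 451 and 451 CPM in NT and at 325, 299.8 and 272 CPM in KO (-0.59, SE 0.0905, adjusted p 0.00259). Adcy5, an adenylyl cyclase, was at 231 and 232 CPM in NT and at 146, 157 and 158 CPM in KO (-0.59, adjusted p 0.00101). Shisa8, of a family of AMPA receptor auxiliary proteins, was at 15.9 and 12.3 CPM in NT and at 4.61, 3.08 and 3.26 CPM in KO (-1.94, SE 0.307, adjusted p 0.00298), the largest fall of the set after Smarcc2. Nsmf, which carries NMDA receptor signals from synapse to nucleus, fell by 0.59 on the log2 scale, from 376 and 376 CPM in NT to 253, 258 and 236 CPM in KO.

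Cytoskeletal and metabolic genes made up much of the remainder. Tns1, which links integrins to actin, was at 34.2 and 35.2 CPM in NT and at 13.7, 16.3 and 11.5 CPM in KO (-1.32, SE 0.167, adjusted p 5.68e-04). Limk1, the kinase that inactivates cofilin and so steadies actin filaments, was at 105 and 125 CPM in NT and at 63.2, 68.1 and 65.8 CPM in KO (-0.81, adjusted p 6.24e-04). Slc25a22, a mitochondrial glutamate carrier, fell by 0.52 on the log2 scale, Pygb, brain glycogen phosphorylase, by 0.89, and Cyb5r3, a cytochrome b5 reductase, by 0.82. Nf2, which encodes the tumour suppressor merlin, fell by 0.50, and Nbl1, a secreted antagonist of BMP ligands, by 1.38. The set also held Nrip3 (-0.80, adjusted p 1.92e-04), Paqr8 (-0.85, adjusted p 2.01e-04), Ttyh3 (-0.58, adjusted p 2.98e-04), Tnrc18 (-0.68, adjusted p 3.39e-04) and Kndc1 (-0.57, adjusted p 0.00274), and the matrix genes Bcan and Hapln4.

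In the opposite direction, 3 genes that are not processed pseudogenes rose in every fit. Pidd1 (chromosome 7, 141438113 to 141444025, minus strand), a death-domain protein gene induced by p53, was at 5.07 and 5.02 CPM in NT and at 15.3, 17.1 and 15.6 CPM in KO (1.66, SE 0.219, adjusted p 8.15e-04). Nwd2 was at 23.9 and 20.5 CPM in NT and at 37.3, 38.4 and 40.9 CPM in KO (0.80, SE 0.109, adjusted p 0.00101). Pidd1 lies 220 bases from Slc25a22 on the same strand, a pair noticed after its values were seen, and of these neighbours one rose while the other fell.

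Pgk1 (chromosome X, 106187100 to 106203699, plus strand), the gene of the glycolytic enzyme phosphoglycerate kinase, was the third. It was at 528 and 452 CPM in NT and at 1525, 1367 and 1671 CPM in KO (1.63, SE 0.107, adjusted p 7.16e-08). In depolarized knockout cultures with wild-type Smarcc2 added back Pgk1 was at 597, 543 and 506 CPM, and with the S586A form at 601 and 665 CPM, nearer to NT than to the KO libraries with the vector. Nearly all of its reads were assigned to Pgk1-201, at 11125 and 8475 estimated counts in NT and 29775, 23051 and 25639.7 in KO. Reads of an introduced construct were not separated from those of the gene, and their part in the result was not tested. Pgk1 differed here from Adora1, Tanc1, Shank3, Bcan and Pidd1. With wild-type Smarcc2 added back under KCl, their means were 325, 43.0, 217, 29.5 and 13.8 CPM, each nearer to KO than to NT. Smarcc2 itself was at 895, 737 and 1089 CPM in those libraries and at 1340 and 1303 CPM with S586A. In NT it was at 274 and 283 CPM.

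Promoter windows from RefSeq (GRCm38.p6), from 250 bases before to 50 after the annotated start, are printed for 2 genes that fell and 2 that rose in every fit, so that opposite responses can be read beside their sequence. Capitals mark matches to the GC box, searched as GGGCGG on both strands.
Bcan, chr3:88000307-88000606, minus strand: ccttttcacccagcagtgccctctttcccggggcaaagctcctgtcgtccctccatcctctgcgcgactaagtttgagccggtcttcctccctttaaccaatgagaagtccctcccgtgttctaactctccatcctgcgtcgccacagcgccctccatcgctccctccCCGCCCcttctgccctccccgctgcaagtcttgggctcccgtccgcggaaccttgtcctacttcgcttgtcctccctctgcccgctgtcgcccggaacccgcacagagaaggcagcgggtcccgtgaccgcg
Shank3, chr15:89499358-89499657, plus strand: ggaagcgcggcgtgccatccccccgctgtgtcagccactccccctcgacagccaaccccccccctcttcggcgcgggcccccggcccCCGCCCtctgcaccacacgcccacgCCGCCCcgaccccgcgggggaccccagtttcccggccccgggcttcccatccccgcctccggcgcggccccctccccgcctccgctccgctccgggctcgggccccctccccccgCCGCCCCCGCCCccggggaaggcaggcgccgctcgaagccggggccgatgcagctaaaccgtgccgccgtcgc
Pgk1, chrX:106186850-106187149, plus strand: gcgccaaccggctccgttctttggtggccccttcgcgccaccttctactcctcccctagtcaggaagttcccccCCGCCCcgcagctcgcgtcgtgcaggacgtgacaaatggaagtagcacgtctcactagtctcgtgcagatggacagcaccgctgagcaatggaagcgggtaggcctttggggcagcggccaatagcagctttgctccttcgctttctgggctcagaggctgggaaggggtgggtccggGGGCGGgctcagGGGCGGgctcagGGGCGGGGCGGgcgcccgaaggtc
Pidd1, chr7:141443976-141444275, minus strand: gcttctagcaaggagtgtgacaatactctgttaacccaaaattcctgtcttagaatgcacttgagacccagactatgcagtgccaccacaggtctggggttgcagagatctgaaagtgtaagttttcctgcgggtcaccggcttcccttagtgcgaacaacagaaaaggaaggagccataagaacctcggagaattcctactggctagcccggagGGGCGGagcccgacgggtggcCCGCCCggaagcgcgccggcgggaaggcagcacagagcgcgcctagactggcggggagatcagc
The window of Bcan held 1 match, that of Shank3 4, that of Pgk1 5 and that of Pidd1 2. Of 32851 promoter windows of this length in the table, 35.7% held at least 1 match. That share is of all windows, not of the genes tested. A window was found for 12048 of 15580 protein-coding genes tested (77.3%), 89 of 114 that rose and 302 of 397 that fell. The called genes as sets were not compared, and the windows printed do not stand for them.

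Several genes of the perineuronal matrix fell. The lecticans Bcan, Ncan and Acan are chondroitin sulphate proteoglycans that, with link proteins such as Hapln4, build the nets around neurons. Of 34 matrix genes 6 fell and 0 rose, against 1.95% and 0.726% of all genes, and the median was -0.35. Bcan (chromosome 3, 87987531 to 88000230, minus strand) was at 43.3 and 52.1 CPM in NT and at 20.02, 27.0 and 24.6 CPM in KO (-0.997, SE 0.140, adjusted p 0.00126). Hapln4 was at 87.3 and 83.2 CPM in NT and at 41.2, 44.0 and 48.9 CPM in KO (-0.93, SE 0.144, adjusted p 0.00270). In both genes every KO library lay well below NT. Ncan was at 687 and 672 CPM in NT and at 419, 468 and 418 CPM in KO (-0.64, adjusted p 0.0107), and Acan was at 11.7 and 5.92 CPM in NT and at 3.74, 3.08 and 2.48 CPM in KO (-1.50, adjusted p 0.0180). The other 2 were Sparcl1 (-0.49, adjusted p 0.0303), a secreted protein that promotes synapse formation, and the protease gene Mmp15 (-0.51, adjusted p 0.0430). Leaving out single libraries ended the calls of Mmp15 (any 1 of the 5 libraries left out, adjusted p 0.0734 to 0.417), Sparcl1 (any KO library or NT replicate 2 left out, adjusted p 0.0606 to 0.567), Acan (KO replicate 2, KO replicate 3 or NT replicate 1 left out, adjusted p 0.0655 to 0.222) and Ncan (NT replicate 1 or NT replicate 2 left out, adjusted p 0.0531 to 0.101). Bcan and Hapln4 passed with each of the 5 libraries left out in turn. The list's median without NT replicate 2 was -0.30. Glia also express Bcan, Ncan and Sparcl1, and the glial markers given next moved with them, whose part in the result was not tested.

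Astrocyte markers lay lower in KO. Of 16 tested, 16 had a log2 fold change below 0 (median -1.14), 15 had every KO library below both NT libraries, and 4 fell. Over all genes, 9957 of 20940 were below 0, 18.5% had every KO library below both NT libraries and 1.95% fell. Slc1a2, the main glutamate transporter of astrocytes, was at 1057 and 1234 CPM in NT and at 635, 640.0 and 739.8 CPM in KO (-0.77, SE 0.126, adjusted p 0.00378). Aqp4, the water channel of astrocyte endfeet, was at 17.0 and 18.6 CPM in NT and at 0.461, 2.25 and 2.54 CPM in KO (-3.38, SE 0.762, adjusted p 0.0257). Ntsr2 (-1.46, adjusted p 0.0164), a neurotensin receptor, and the calcium-binding S100b (-1.46, adjusted p 0.0257) were the other 2 that fell. Gfap, an intermediate filament gene, was at 84.7 and 311 CPM in NT and at 38.9, 65.3 and 49.7 CPM in KO and was not called (adjusted p 0.0736). The summed level of the list was 2005 and 2699 CPM in NT and 1218, 1354 and 1285 CPM in KO. Calls that did not hold with a library left out were those of Aqp4 (any 1 of the 5 libraries left out, adjusted p 0.0598 to 0.181), Ntsr2 (KO replicate 1, KO replicate 3 or NT replicate 2 left out, adjusted p 0.0663 to 0.255), S100b (KO replicate 1, KO replicate 2 or NT replicate 2 left out, adjusted p 0.0902 to 0.316) and Slc1a2 (NT replicate 2 left out, adjusted p 0.100). The median without NT replicate 2 was -0.75. In bulk RNA, fewer cells of a type and less RNA per cell cannot be told apart.

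Markers of oligodendrocyte precursors (OPC) lay lower as well. Of 11 tested 11 were below 0 (median -1.30), and 4 fell, against 1.95% of all genes. Pdgfra, the growth factor receptor that marks these cells, was at 1.42 and 13.5 CPM in NT and at 0.870, 0.534 and 0.782 CPM in KO (-3.33, SE 0.769, adjusted p 0.0277). Olig1, a lineage transcription factor, was at 6.68 and 24.4 CPM in NT and at 2.51, 3.14 and 2.15 CPM in KO (-2.57, SE 0.556, adjusted p 0.0199). Olig2 (-2.18, adjusted p 0.0456) and the receptor phosphatase gene Ptprz1 (-1.30, adjusted p 0.0467) also fell. NT replicate 2 held the high values of Pdgfra and Olig1, and without it their log2 fold changes were -0.95 and -1.36. Single left-out libraries removed the calls of Ptprz1 (any 1 of the 5 libraries left out, adjusted p 0.0505 to 0.509) and Pdgfra, Olig1 and Olig2 (any KO library or NT replicate 2 left out, adjusted p 0.0601 to 0.792). The list's median without NT replicate 2 was -0.89.

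Other non-neuronal lists were short. Over all genes, 2.67% were called and 3466 of 20940 had an unadjusted p under 0.05 in edgeR. Counts from lists this small do not tell them apart from those shares. Myelinating oligodendrocyte (10 tested), microglial (5) and vessel and fibroblast markers (10) gave 0 calls in edgeR, with 3, 1 and 3 at an unadjusted p under 0.05 and 1, 1 and 0 calls in DESeq2. Their medians were -0.35, -0.04 and -0.95, and without NT replicate 2 -0.18, 0.05 and -0.51. Without NT replicate 1 they were -0.53, -0.13 and -0.49, and the microglial median without KO replicate 2 was 0.16. The vessel and fibroblast median was also nearer 0 with effective-length offsets (-0.52), with the replicate block (-0.56) and at rest (0.10). The complement genes C1qa, C1qb and C1qc, which mark microglia, were at 0 counts in all 3 KO libraries, and below 1 CPM in NT. Of 14 progenitor and cell cycle genes Eomes, a factor of intermediate progenitors, was called, with 21 counts over the NT libraries and 0 over the KO libraries, at least 9.09-fold lower against a floor of 3 counts over the group. It was at 0.190 and 0.907 CPM in NT. At rest Eomes lay the other way, at 0.127 and 0.184 CPM in NT and 0.700, 0.475 and 0.255 CPM in KO (1.59, adjusted p 0.348). The leave-one-out fits lost Eomes (any KO library or NT replicate 2 left out, adjusted p 0.0825 to 0.351). The median of that list was -0.77, -0.39 without NT replicate 2 and -1.20 without NT replicate 1.

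**Figure D4:**
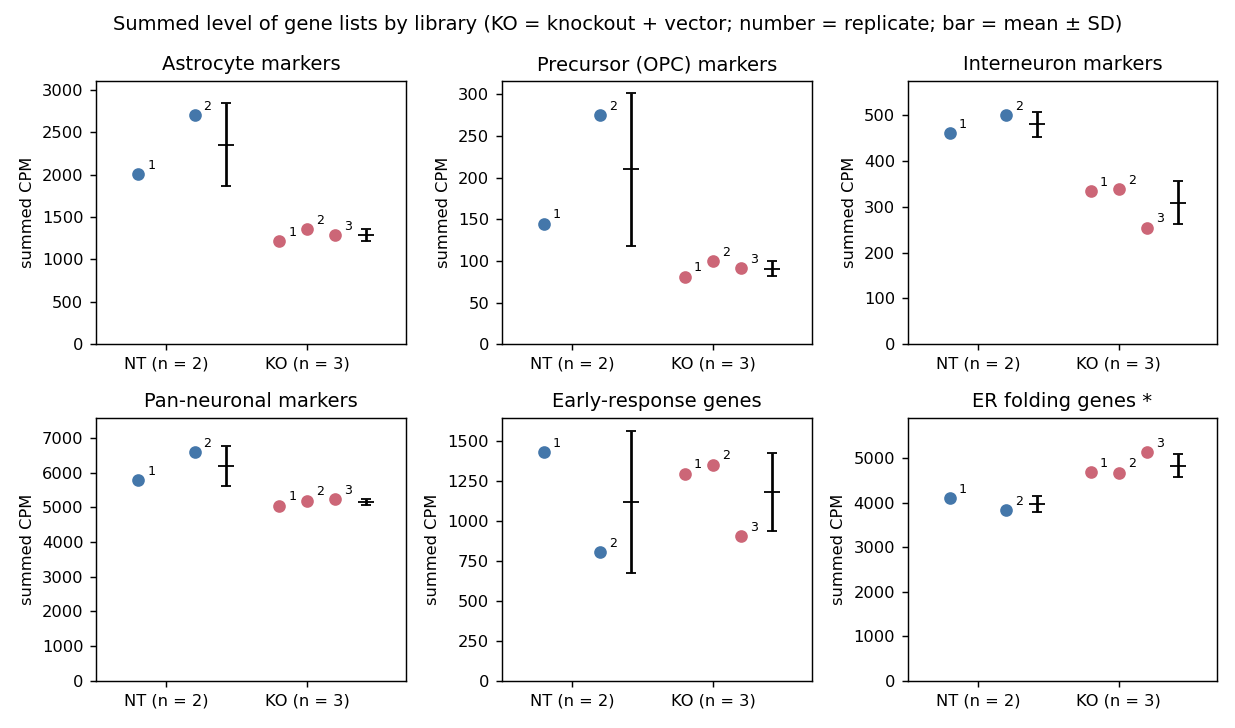
Summed CPM (vertical axis, from 0) of 6 gene lists in each NT and KO library, one point per library numbered by replicate, with the mean and SD beside the points. Astrocyte, precursor, interneuron and pan-neuronal sums are lower in all 3 KO libraries than in both NT libraries, early-response sums overlap, and the sums of ER folding genes, a list written after values were seen, are higher in KO.

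Pan-neuronal markers also lay below 0, by less. All 12 did so, with a median of -0.23 (-0.36 without NT replicate 1 and -0.17 without NT replicate 2), and 3 fell, against 1.95% of all genes. Nefl, a neurofilament subunit of axons, was at 285 and 353 CPM in NT and at 158, 155 and 194 CPM in KO (-0.92, SE 0.186, adjusted p 0.0148). Nefm (-0.71, adjusted p 0.0209), another such subunit, and Snap25 (-0.36, adjusted p 0.0467), a SNARE protein of vesicle fusion, were the others. Of 18 genes of cortical excitatory neurons and layers, Rasgrf2, an upper-layer marker, rose (92.6 and 90.4 CPM in NT against 132, 135 and 118 CPM in KO, log2 fold change 0.49, adjusted p 0.0342), and the median was -0.01. With 1 library left out, these calls were lost: Snap25 (any 1 of the 5 libraries left out, adjusted p 0.0723 to 0.453), Nefm (KO replicate 2, KO replicate 3, NT replicate 1 or NT replicate 2 left out, adjusted p 0.0716 to 0.192), Rasgrf2 (KO replicate 1, KO replicate 2, NT replicate 1 or NT replicate 2 left out, adjusted p 0.104 to 0.302) and Nefl (KO replicate 1, KO replicate 2 or NT replicate 2 left out, adjusted p 0.0630 to 0.252).

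Interneuron markers were lower across their list under KCl. All 16 tested had a log2 fold change below 0 (median -0.64), and 2 fell, against 1.95% of all genes. Vip, a neuropeptide gene of one interneuron class, was at 12.1 and 15.0 CPM in NT and at 8.24, 7.11 and 9.52 CPM in KO (-0.71, SE 0.170, adjusted p 0.0320). Calb2, the gene of the calcium-binding protein calretinin, was at 15.2 and 20.5 CPM in NT and at 8.60, 11.3 and 8.60 CPM in KO (-0.91, SE 0.223, adjusted p 0.0374). Gad1, a GABA-synthesizing enzyme, was at 113 and 121 CPM in NT and at 82.0, 81.6 and 68.3 CPM in KO and was not called (adjusted p 0.208). The summed level was 459.8 and 499 CPM in NT and 334, 338 and 254 CPM in KO. Leaving out single libraries ended the calls of Calb2 (any KO library or NT replicate 2 left out, adjusted p 0.0542 to 0.433) and Vip (KO replicate 1, KO replicate 2 or NT replicate 2 left out, adjusted p 0.0975 to 0.402). The median without NT replicate 2 was -0.55. At rest the direction was not the same: the list's median was 0.25 with 0 called, and Vip was at 10.3 and 7.16 CPM in NT and 13.0, 10.6 and 12.2 CPM in KO (0.45, adjusted p 0.143). The difference between the effects on Vip was -1.16, which did not pass in edgeR (adjusted p 0.395) and passed in DESeq2 (adjusted p 0.0469).

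Genes of transmitter release and reception gave calls in both directions. Of 26 synaptic vesicle genes 3 fell and 1 rose (median -0.22), against 1.95% and 0.726% of all genes. Cplx1, which clamps and promotes vesicle fusion, was at 542 and 605 CPM in NT and at 371, 357 and 309.8 CPM in KO (-0.73, SE 0.140, adjusted p 0.0113). Syt7, a calcium sensor of slow release, fell by 0.39 on the log2 scale (adjusted p 0.0162), as did Snap25. Syt4, a synaptotagmin induced by activity, rose (179 and 182 CPM in NT against 232, 226 and 232 CPM in KO, log2 fold change 0.35, adjusted p 0.0281). Of 30 glutamate receptor genes 2 fell, against 1.95% of all genes. Grin1, the obligatory NMDA receptor subunit, was at 692 and 656 CPM in NT and at 493, 524 and 539 CPM in KO (-0.38, SE 0.0695, adjusted p 0.00873), and Cacng5, an AMPA receptor auxiliary subunit, was the other (-0.75, adjusted p 0.0216). Of 12 GABA-A receptor subunits 0 were called in edgeR or DESeq2, with 2 at an unadjusted p under 0.05. Over all genes, 2.67% were called and 3466 of 20940 had such an unadjusted p in edgeR. Calls that did not hold with a library left out were those of Syt4 (any 1 of the 5 libraries left out, adjusted p 0.0660 to 0.238), Syt7 and Cacng5 (KO replicate 2, KO replicate 3 or NT replicate 2 left out, adjusted p 0.0503 to 0.329), Cplx1 (KO replicate 3 or NT replicate 2 left out, adjusted p 0.0553 to 0.192) and Grin1 (NT replicate 1 or NT replicate 2 left out, adjusted p 0.0625 to 0.0682).

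Ion channel genes gave calls in both directions. Scn3b, an auxiliary subunit of voltage-gated sodium channels, was at 92.1 and 79.5 CPM in NT and at 134, 136 and 125 CPM in KO (0.62, SE 0.107, adjusted p 0.00575), higher in KO. Cacna2d2, an auxiliary calcium channel subunit, fell (15.3 and 16.3 CPM in NT against 8.65, 10.4 and 8.47 CPM in KO, log2 fold change -0.79, adjusted p 0.0134). The leak potassium channel gene Kcnk2 rose (19.1 and 14.51 CPM in NT against 27.2, 24.4 and 29.0 CPM in KO, log2 fold change 0.67, adjusted p 0.0197). The median was -0.06 over 23 calcium and sodium channel genes and -0.14 over 38 potassium channel genes. Single left-out libraries removed the calls of Cacna2d2 and Kcnk2 (KO replicate 1, KO replicate 3 or NT replicate 2 left out, adjusted p 0.0585 to 0.332) and Scn3b (NT replicate 2 left out, adjusted p 0.159).

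Postsynaptic scaffold genes and fatty acid genes were put into lists after their values had been seen, so their counts are a description. Of 27 postsynaptic genes 10 fell and 0 rose, against 1.95% and 0.726% of all genes, with a median of -0.26. Beside Tanc1 and Shank3 these included Agap2, Homer2, Dlgap2, Srcin1, Iqsec3, Insyn1 and Nlgn2, an adhesion protein of inhibitory synapses, at -0.50 to -0.29. Agap2, a GTPase-activating protein, was at 601 and 628 CPM in NT and at 446, 454 and 407 CPM in KO (-0.50, adjusted p 0.0107). With NT replicate 2 left out 2 of the list passed, with a median of -0.21, and without single KO libraries 3 to 4 passed.

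Of 30 fatty acid genes 11 fell and 0 rose, against 1.95% and 0.726% of all genes, with a median of -0.32. Scd1, a desaturase that makes monounsaturated fatty acids, was at 123 and 172 CPM in NT and at 60.2, 61.6 and 52.9 CPM in KO (-1.34, SE 0.238, adjusted p 0.00698). Fasn, fatty acid synthase, was at 636 and 782 CPM in NT and at 436, 501 and 489.8 CPM in KO (-0.58, SE 0.0891, adjusted p 0.00270). Srebf1, a transcription factor of lipid synthesis, was at 42.6 and 53.7 CPM in NT and at 22.5, 25.3 and 20.9 CPM in KO (-1.07, adjusted p 0.0275). The other 8 were Scd2, Acsl3, Acsl6, Me1, Cpt1a, Acadl, Lpl and Dbi, at -1.30 to -0.39. Of 22 cholesterol genes the regulator Srebf2 fell (214 and 238 CPM in NT against 149.9, 156 and 174 CPM in KO, log2 fold change -0.50, adjusted p 0.00566) and the median was -0.14. Without NT replicate 2, 0 of the 30 passed, with a median of -0.30, and 5 to 6 passed without a KO library. The leave-one-out fits lost Srebf2 (NT replicate 2 left out, adjusted p 0.133). Astrocyte markers, summed above, were lower in the same libraries, and their part in the result was not tested.

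Guidance, signalling and neuropeptide lists ranged from 0 calls (Notch) to 15% of members called (neuropeptide), against 2.67% of all genes. Over all genes, 1.95% fell and 0.726% rose. Of 48 axon guidance genes Sema7a (-0.68, adjusted p 0.0270), Plxna4 (-0.44, adjusted p 0.0209) and Unc5a (-0.42, adjusted p 0.0374) fell, with a median of -0.04. Of 33 Wnt genes the receptor Fzd10 fell (1.94 and 1.44 CPM in NT against 0.410, 0.296 and 0.196 CPM in KO, log2 fold change -2.45, adjusted p 0.0176). Of 20 neuropeptide genes the granin Chga (-0.35, adjusted p 0.0271) and Vip fell, and Pam, the enzyme that amidates peptides, rose (0.41, adjusted p 0.0258). Notch (21 tested), BMP and TGF-beta (29) and interferon genes (12) gave 0 calls in edgeR, with 8, 8 and 3 at an unadjusted p under 0.05 and 1, 2 and 0 calls in DESeq2. Of all 20940 genes, 3466 had such an unadjusted p in edgeR. With 1 library left out, these calls were lost: Sema7a and Unc5a (any 1 of the 5 libraries left out, adjusted p 0.0624 to 0.286), Plxna4 and Chga (any KO library or NT replicate 2 left out, adjusted p 0.0516 to 0.417) and Fzd10 and Pam (KO replicate 2, KO replicate 3, NT replicate 1 or NT replicate 2 left out, adjusted p 0.0639 to 0.310).

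**Figure D5:**
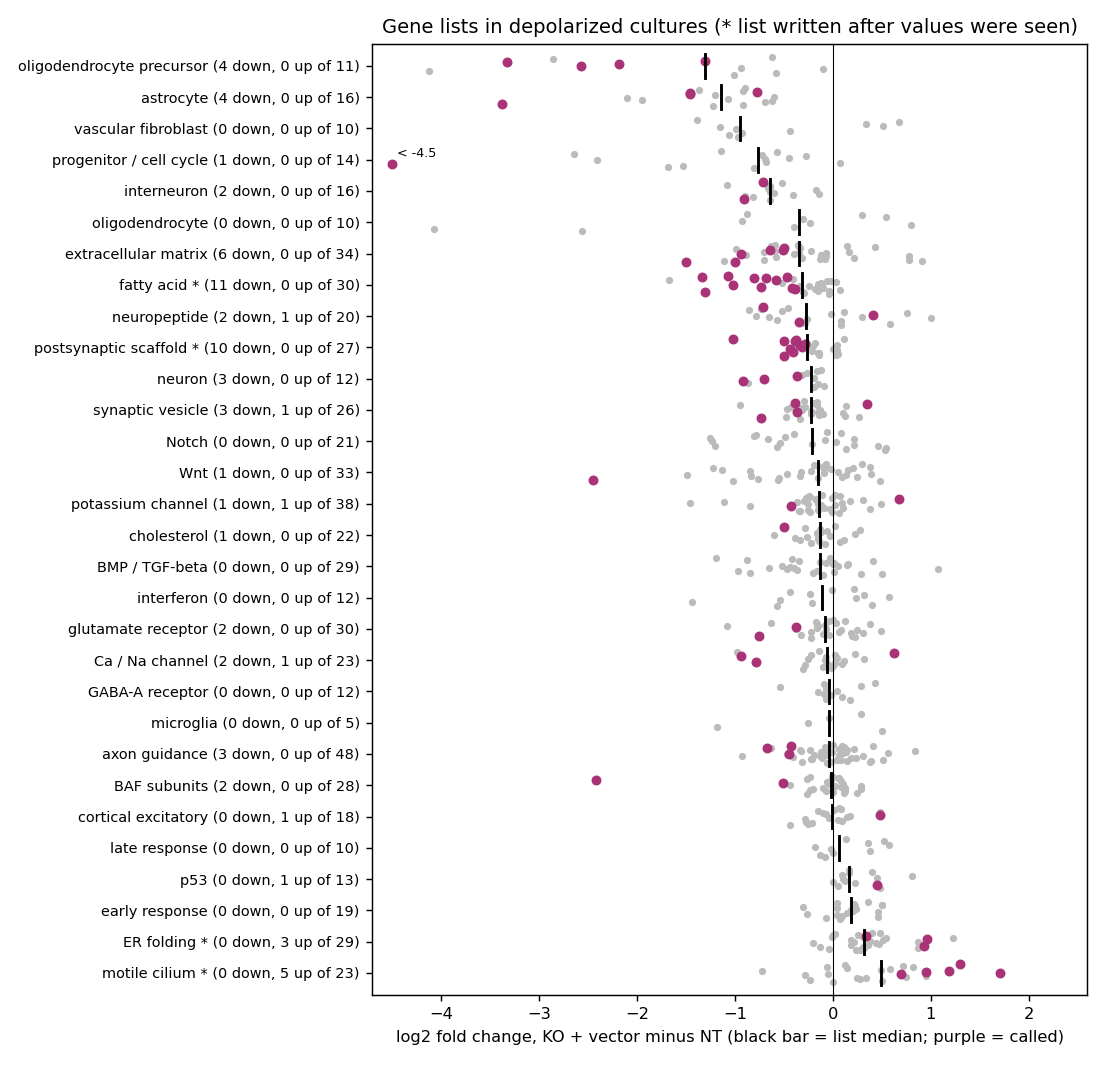
Log2 fold change of KO minus NT (horizontal axis) for the tested genes of each list, one point per gene, with called genes in purple and a black bar at the list's median; Eomes, beyond the axis, is drawn at the left edge. The OPC, astrocyte, vascular, progenitor and interneuron lists have the lowest medians, and the ER folding and motile cilium genes, lists marked with an asterisk as written after values were seen, the highest.

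Among the genes that rose, some belong to protein folding in the endoplasmic reticulum (ER). Of 29 such genes, a list written after values were seen, 3 rose and 0 fell, 24 were above 0, and the median was 0.32. Over all genes, 0.726% rose and 10971 of 20940 were above 0. Derl3, which helps pass misfolded proteins out of the ER, was at 35.5 and 25.3 CPM in NT and at 66.6, 58.5 and 48.5 CPM in KO (0.93, SE 0.157, adjusted p 0.00548). Pdia4, a disulphide isomerase, was at 57.4 and 46.9 CPM in NT and at 92.6, 90.0 and 122 CPM in KO (0.96, adjusted p 0.0388), and Ssr2, of the translocon, was the third (0.33, adjusted p 0.0408). Hspa5, the main ER chaperone, was at 315 and 233 CPM in NT and at 461, 469 and 566 CPM in KO and was not called (adjusted p 0.0590). Leaving out single libraries ended the calls of Pdia4 and Ssr2 (any 1 of the 5 libraries left out, adjusted p 0.0501 to 0.393) and Derl3 (NT replicate 2 left out, adjusted p 0.155). The median without NT replicate 2 was 0.28.

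Genes of the motile cilium, also listed after values were seen, had 5 rises and 0 falls of 23 tested (median 0.49). Over all genes, 0.726% rose and 1.95% fell. Efcab1 was at 4.93 and 6.88 CPM in NT and at 11.6, 12.6 and 10.0 CPM in KO (0.95, adjusted p 0.0162), and Erich3, Drc1, Drc7 and Zmynd10 rose by log2 fold changes from 0.70 to 1.71. Foxj1, the master factor of motile cilia, was at 12.03 and 11.2 CPM in NT and at 5.38, 10.3 and 5.41 CPM in KO (-0.72, adjusted p 0.239), not above NT. Of 13 genes induced by p53, 13 were above 0 (median 0.17) and the apoptosis gene Bbc3 rose (31.5 and 29.8 CPM in NT against 43.1, 43.6 and 39.0 CPM in KO, log2 fold change 0.45, adjusted p 0.0429). Cdkn1a, the cell cycle inhibitor that p53 induces, was at 109 and 87.0 CPM in NT and at 91.0, 99.2 and 105 CPM in KO, with overlapping groups. Calls that did not hold with a library left out were those of Erich3 and Bbc3 (any 1 of the 5 libraries left out, adjusted p 0.0594 to 0.362), Efcab1 (KO replicate 1, KO replicate 2, NT replicate 1 or NT replicate 2 left out, adjusted p 0.0523 to 0.133), Drc1 and Zmynd10 (KO replicate 2, KO replicate 3, NT replicate 1 or NT replicate 2 left out, adjusted p 0.0804 to 0.409) and Drc7 (any KO library or NT replicate 2 left out, adjusted p 0.0920 to 0.453).

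Processed pseudogenes, copies of spliced transcripts inserted back into the genome, were 31 of the 152 genes that rose (20.4%), 0 of the 408 that fell and 2.95% of genes tested. Their log2 fold changes ran from 1.31 to 4.75. Their summed level was 25.4 and 26.6 CPM in NT and 114, 89.0 and 117 CPM in KO. The 31 rows were picked for their rise under KCl, so these depolarized NT and KO sums describe that choice. In resting cultures the sum was 18.6 and 24.7 CPM in NT and 95.6, 98.9 and 147 CPM in KO, and 28 of the 31 were also called there. In depolarized knockout cultures with Smarcc2 added back it was 79.4 to 162 CPM. These rows were thus high in knockout cultures at rest and under KCl, and under KCl also with Smarcc2 added back. Reads of such copies are shared with their parent genes and with each other, so single rows are uncertain. Left aside, 121 genes rose. Without NT replicate 2, 3 of the 31 passed.

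The largest changes were mostly at low levels. Among called genes of at least 1 CPM whose symbols are not those of predicted genes, clones or pseudogenes, the largest falls beside Aqp4, Pdgfra, Smarcc2, Olig1 and Olig2 were Il11ra2, Chrnb4, A2m, Selenop, Dock8, Blnk and Il1r1, at -2.90 to -1.96. Blnk, an adaptor of B cell receptor signalling, was at 20.7 and 36.2 CPM in NT and at 7.63, 7.77 and 4.76 CPM in KO (-2.07, SE 0.328, adjusted p 0.00298). Selenop, a secreted selenium carrier, was at 13.1 and 19.7 CPM in NT and at 3.12, 3.79 and 2.41 CPM in KO (-2.39, adjusted p 0.0257). The largest rise was that of Malrd1, with 109 counts over the KO and 3 over the NT libraries, a ratio of 27.98 after scaling (95% interval 9.32 to 138, counting error only). It was at 0.0474 and 0.107 CPM in NT and at 1.64, 2.08 and 2.74 CPM in KO. Under KCl it was at 0.432, 0.319 and 0.0895 CPM with wild-type Smarcc2 added back and at 0.153 and 0.116 CPM with S586A. Like Pgk1, it was then nearer to NT than to KO with the vector. The part of an introduced construct in this rise was not tested. The other largest rises, beside Drc7, Zmynd10, Pidd1 and Pgk1, were Rprl2, Rinl, Iqcf5, Padi3, Alkal2, Gzmk and Akap3, at 1.35 to 2.21. Rprl2 rose while its near-identical copy Rprl3 fell (-1.61), and reads split between copies make both uncertain. Single left-out libraries removed the calls of Il11ra2, Chrnb4, A2m, Dock8 and Alkal2 (any 1 of the 5 libraries left out, adjusted p 0.0579 to 0.358), Selenop, Iqcf5 and Akap3 (any KO library or NT replicate 2 left out, adjusted p 0.0619 to 0.442), Rinl (KO replicate 2, KO replicate 3, NT replicate 1 or NT replicate 2 left out, adjusted p 0.0655 to 0.337), Padi3 and Gzmk (KO replicate 1, KO replicate 2, NT replicate 1 or NT replicate 2 left out, adjusted p 0.0601 to 0.320), Il1r1 (KO replicate 2 or NT replicate 2 left out, adjusted p 0.0569 to 0.216), Malrd1 (NT replicate 1 or NT replicate 2 left out, adjusted p 0.0508 to 0.0773) and Blnk and Rprl2 (NT replicate 2 left out, adjusted p 0.0991).

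Early-response genes, which depolarization switches on, were not called. Of 19 tested 0 passed in edgeR or DESeq2, with 1 at an unadjusted p under 0.05, and the median was 0.19. Over all genes, 2.67% were called and 3466 of 20940 had an unadjusted p under 0.05 in edgeR. So 0 calls among 19 genes do not set the list apart. Fos, an AP-1 subunit, was at 113 and 38.5 CPM in NT and at 101, 111 and 51.2 CPM in KO (0.21, SE 0.486, adjusted p 0.881). Npas4, a neuron-specific activity factor, was at 53.3 and 13.1 CPM in NT and at 42.1, 48.2 and 25.6 CPM in KO (0.22, SE 0.537, adjusted p 0.889). In both genes all KO libraries lay between the 2 NT libraries. Fosb (0.19), Arc (0.07), Egr1 (0.04), Nr4a1 (0.04) and the growth factor gene Bdnf (-0.08) had adjusted p of 0.832 to 0.973. The direction rested on single libraries. Without NT replicate 2 Fos was at -0.37, Npas4 at -0.46 and the list's median at -0.26, and without NT replicate 1 the median was 0.69. Of 10 late-response genes 0 were called in edgeR or DESeq2, with 2 at an unadjusted p under 0.05. These are too few genes to set that list apart from all genes.

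Resting cultures with the same knockout, in 5 other libraries (2 NT, 3 KO), gave their own values for these genes. They were silenced in the same way and not given KCl. Of the 408 genes that fell under KCl, 384 (94.1%) were below 0 at rest and 169 were called lower there. Of the 152 that rose, 145 (95.4%) were above 0 at rest and 72 were called higher. The interneuron, neuropeptide and vessel and fibroblast lists, most of whose members were not called under KCl, had medians above 0 at rest (0.25, 0.31 and 0.10) and below 0 under KCl (-0.64, -0.27 and -0.95), differences that were not tested. Over all genes tested, 61.2% of those below 0 under KCl were below 0 at rest and 7.15% were called lower there. Of those above 0, 64.3% were above 0 at rest and 3.54% were called higher. In either direction, 5.9% of all genes were called at rest. At rest the log2 fold change was -0.93 for Tanc1 (adjusted p 5.57e-04), -0.65 for Shank3 (2.16e-04), -1.16 for Bcan (2.17e-04), 0.88 for Pidd1 (0.0186) and 1.24 for Pgk1 (5.24e-06).

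The difference between the knockout effect under KCl and that at rest was tested as an interaction. In edgeR 0 of 20940 genes passed (0%), with 1845 at an unadjusted p under 0.05 and a smallest adjusted p of 0.242. DESeq2 called 7, among them Gm37233, Gm44002, Pcp4, Rph3a, Vip and Zc3h11a. Some genes called under KCl were near 0 at rest. Scn3b was at 0.07 at rest (interaction 0.55, adjusted p 0.472), Aqp4 at -0.13 (interaction -3.25, adjusted p 0.472) and Nefm at -0.03 (interaction -0.67, adjusted p 0.472). A knockout effect that differed between depolarized and resting cultures was not shown for these genes.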

How the data were processed

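RNA depleted of ribosomal RNA was sequenced as paired-end reads, per the labels' protocols. The authors' files hold kallisto estimated counts (expected counts) and TPM per transcript, and the submitters' processing notes also name FastQC and cutadapt, while versions, build and strand setting are not given in the sources used here. Of 142552 transcripts 141429 were matched to GENCODE M21 (GRCm38), and the deposited counts were summed per gene and rounded. The 20 DIV18 libraries in 8 groups were fitted in edgeR 4.0.16 (R 4.3.3) with TMM, filterByExpr and the two-sided quasi-likelihood test, with Benjamini-Hochberg adjustment over 20940 genes and no replicate block, leaving 12 residual degrees of freedom. DESeq2 1.42.0 was an alternative. P-values measure the spread between these libraries. On simulated data for this comparison (41147 genes, 200 changed) 58% of 2-fold and 81% of 4-fold changes were recovered. Genes named are Smarcc2, Smarcc1, 7 activity genes, the 12 largest rises and falls and 6 smallest p in each direction among called genes of at least 1 CPM with no overlap and no predicted-gene symbol, and called list genes. Other genes were named after their values were seen. The comparison, members and lists were chosen with earlier results of these data known, and 4 lists were added after values were seen. Some genes are not reported here.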

Additional observations from a re-analysis of the deposited data

How the results depend on the processing

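Smarcc2 kept its direction and its call in all 11 alternatives, at -2.53 to -1.59. The number of genes called, 560 as reported, was 933 in DESeq2, 1437 with no filter on low counts and 279 with effective-length offsets, and 40 to 276 with 1 library left out. Median-of-ratios size factors gave 546, and the 5 libraries fitted alone 690. With the replicate number as a block it was 835, 546 of the 560 among them. Same-numbered NT and KO libraries deviated together with correlations of 0.0236 and 0.0608 across genes, and the numbers were not taken to pair the samples. The deviations of 2 NT libraries mirror each other, so this is a weak check. Same-numbered depolarized and resting KO libraries correlated at 0.128, 0.0689 and 0.238. The interaction as reported was fitted without that pairing. The 560 genes kept their direction in every alternative except effective-length offsets, where 558 did. The groups did not overlap in any of the 560, so a change of direction was unlikely from the start. The interaction, with 0 calls as reported, gave 7 in DESeq2, 448 with no filter, 1 with the 4 groups compared alone, and 0 to 4 with 1 library left out. Uncalled early-response genes changed sign. With 1 library left out, log2 fold changes ran for Fos from -0.37 to 1.19, Fosb from -0.34 to 1.04, Npas4 from -0.46 to 1.57, Arc from -0.36 to 0.69, Egr1 from -0.26 to 0.43, Nr4a1 from -0.43 to 0.76 and Bdnf from -0.40 to 0.26, with the values opposite to those reported coming without NT replicate 2 for all 7, without KO replicate 1 for Egr1, Nr4a1 and Bdnf, and without KO replicate 2 for Arc and Egr1. With effective-length offsets Nr4a1 was at -7.97e-04. The causes were not tested. Dropping a library leaves NT with 1 or KO with 2 libraries, and the lone NT library is then assumed to vary like the other groups.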
